A study of Drosophila melanogaster with 96 samples.

Results

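The genes cry and jet carry light into the circadian clock of Drosophila melanogaster, and their RNA levels are described here in fly heads with and without RNAi against Achl (Achilles). Both genes were taken by their symbols from the deposited table, so the 2 genes are 2 of the 17698 it lists, and each was read in all 96 libraries. cry encodes cryptochrome, a blue-light photoreceptor of clock neurons and of several other tissues. In light, cryptochrome binds TIMELESS (the product of tim), and jet (jetlag) encodes the F-box protein of a ubiquitin ligase that marks TIMELESS, and then cryptochrome, for destruction, which resets the clock. The RNA of cry is known to cycle out of phase with that of per and tim, under the arm of the clock in which vri and Pdp1 act on Clk.

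The 4 groups were female Achl RNAi, female control, male Achl RNAi and male control flies, each with 24 libraries. One collection per group was made at each 2 h step of circadian time (CT), and the steps ran through CT24 and on to CT70. All groups were adults of 3 to 5 days kept on standard food at 25 degrees in a light-dark cycle, and then in constant darkness that began 24 h before the first collection and lasted throughout, so no library was taken in light. Each library came from a pool of 7 to 8 dissected heads, and its poly(A) RNA was sequenced with strand information. The labels name neither the driver of the RNAi nor the control construct. Achl itself averaged 15.6 ± 2.95 TPM in female RNAi heads and 68.3 ± 21.8 TPM in female control heads, and 22.5 ± 7.65 TPM in male RNAi heads and 77.7 ± 39.1 TPM in male control heads (SD, n = 24 each), and it was lower in 24 of 24 same-time pairs in each sex.

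Values are the deposited TPM, a transcript level scaled by gene length and to a fixed sum per library. They carry no read counts, so the depth is unknown and no counting interval is given. No time point has a second library of the same group, so an error is either the spread across a group's 24 libraries or the standard error (SE) of a fit, and p-values measure only how these libraries scatter around the fitted daily courses. In pooled heads, fewer cells of a type and less RNA per cell cannot be told apart. Female libraries formed separate sets by mt:lrRNA, the large mitochondrial ribosomal RNA: 15 of 24 female RNAi and 14 of 24 female control libraries lay under 50000 TPM, 12 of each on the second day, while no male library did. All listed markers of photoreceptors, neurons and glia, the defining cells of a head, were detected in every group.

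cry (FBgn0025680) lies on chromosome 3R from 19212154 to 19215442 on the plus strand of dm6, and its transcript cry-RA has 4 exons and 1896 bases, of which 1626 are coding. jet (FBgn0031652) lies on chromosome 2L from 4948206 to 4949784 on the minus strand, with transcripts jet-RA of 1453 bases and jet-RB of 1241 bases that have 2 exons each. The 3′ part of cry meets the tail of vib on the other strand over 9 bases. The noncoding lncRNA:CR46393 covers 574 bases at the start of cry on the same strand as cry. It has no entry under its FlyBase identifier in the deposited table. jet overlaps betaggt-I on the other strand over 119 bases. Whether the counting used strand is not given in the sources used here, so reads in the overlaps with vib and betaggt-I cannot be assigned with certainty. Strand could not part cry from lncRNA:CR46393, so reads of that RNA may be counted as cry. betaggt-I averaged 16.3 ± 1.54, 17.97 ± 1.41, 19.6 ± 2.35 and 19.9 ± 1.86 TPM in female RNAi, female control, male RNAi and male control heads (SD, n = 24 each). The part of shared reads in the levels of cry and jet was not tested.

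cry RNA was lower in Achl RNAi heads than in control heads, and most clearly in males. In male RNAi heads the lowest cry value was 40.9 TPM, the median 84.6 TPM and the highest 106 TPM, against 62.8, 124 and 175 TPM in male control heads. The groups overlapped, but 24 of 24 male RNAi libraries lay below the male control median, and 4 of them, from CT32 to CT38, lay below every male control. The means were 79.5 ± 18.1 TPM in male RNAi heads and 118 ± 26.3 TPM in male control heads (SD, n = 24 each), so the RNAi mean was 67.5% of the control mean. The fitted change, on the scale of log2(TPM + 1), was -0.57 (SE 0.10, limma, adjusted p = 2.06e-06), and cry was lower in 23 of 24 same-time pairs, CT70 being the exception.

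In females the gap was smaller. Female RNAi heads had a lowest cry value of 51.9 TPM, a median of 103 TPM and a highest of 141 TPM, against 58.4, 111 and 165 TPM in female control heads. These ranges overlapped almost fully: 13 of 24 female RNAi libraries lay below the female control median and 2 below every female control. The means were 98.7 ± 28.9 TPM in female RNAi heads and 114 ± 27.2 TPM in female control heads (SD, n = 24 each). The fitted log2 change of -0.22 (SE 0.10) only just passed the threshold (limma, adjusted p = 0.0487), with 19 of 24 pairs lower, and leaving out 1 library at a time ended the call for 45 of the 96 libraries.

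A lower level with RNAi was common among genes. In females 60.4% of the 10568 genes tested passed the threshold (55.7% as lower), and in males 58.1% did (53.5% as lower), so the calls alone do not set cry apart from other genes. The median log2 change of all genes tested was -0.18 in females and -0.16 in males. Relative to that median, cry stood at -0.04 in females and -0.41 in males. When each library was centred on its median gene, the male change was -0.40 (adjusted p = 2.32e-06, with 32.4% of genes past the threshold), and the female change was -0.055 (adjusted p = 0.651, 22.2%).

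**Figure D1:**
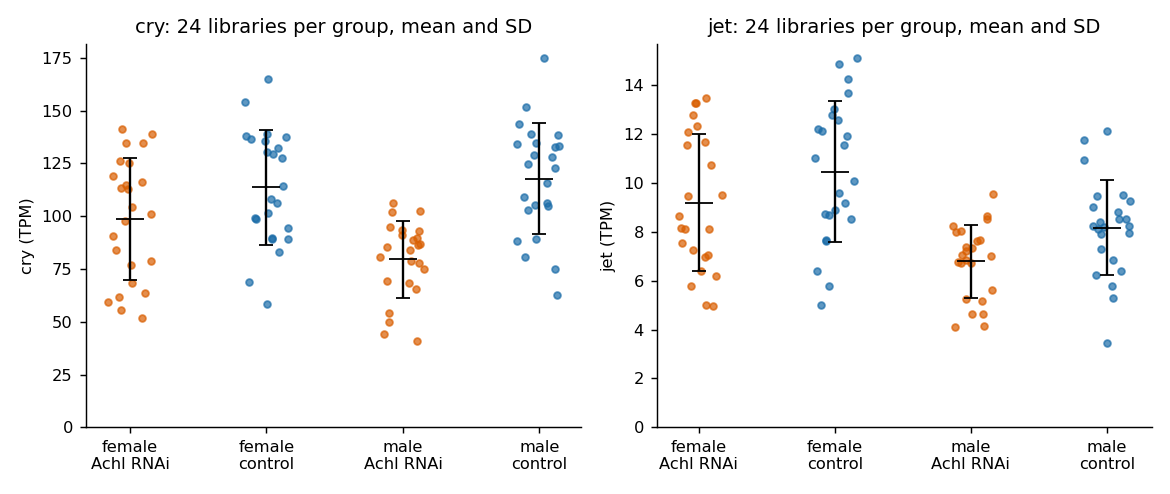
Levels of cry (left) and jet (right) in TPM, with 1 point per library, 24 libraries per group, and black bars for the mean and SD. Male RNAi heads have the lowest means for both genes, 79.5 TPM for cry and 6.78 TPM for jet.

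The size of the RNAi change in cry, female minus male, differed by 0.34 on the log2 scale (SE 0.14, 95% interval 0.06 to 0.62). That difference had p = 0.0179 in limma and did not pass after adjustment over all genes (adjusted p = 0.0995, with 14.1% of genes past the threshold). It passed with libraries centred on their median gene (0.35, adjusted p = 0.00959, 14.3% of genes), on the first day alone (0.58, adjusted p = 0.0257, 16%) and with the low mt:lrRNA set as a term (0.32, adjusted p = 0.0354, 18.1%). It also passed without the female RNAi library of CT44 (0.38, adjusted p = 0.0426), the only 1 of the 96 libraries whose removal changed the call. The difference was 0.10 on the second day alone (adjusted p = 0.64, 4.85%) and 0.18 with log2 mt:lrRNA as a covariate (adjusted p = 0.0743). It also missed the threshold with high mt:lrRNA females alone (0.24, adjusted p = 0.34) and with low mt:lrRNA females alone (0.36, adjusted p = 0.0518). The same held after rescaling without mitochondrial genes (0.29, adjusted p = 0.0545) and with the time point as a block (0.34, adjusted p = 0.0568). It missed with 12 h terms added (adjusted p = 0.117) and without a filter on low values (adjusted p = 0.145) too. Within days, the female change was -0.19 (adjusted p = 0.219, with 46.9% of genes past the threshold) on the first day and -0.25 (adjusted p = 0.00494, 55.3%) on the second. The male change was -0.78 (adjusted p = 7.95e-06, 57.4%) on the first day and -0.35 (adjusted p = 0.000288, 30.3%) on the second. Whether the male change differed between the days was not tested.

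jet stood at a far lower level, and its call with RNAi was limited to males and narrow. In male RNAi heads jet ran from 4.11 TPM through a median of 7.03 TPM to 9.53 TPM, against 3.44, 8.25 and 12.1 TPM in male control heads. No male RNAi library lay below all male controls, though 21 of 24 lay below their median. The means were 6.78 ± 1.49 TPM in male RNAi heads and 8.17 ± 1.956 TPM in male control heads (SD, n = 24 each), and the fitted log2 change of -0.23 (SE 0.10) just passed (limma, adjusted p = 0.0486, lower in 16 of 24 pairs). That call ended when any of 30 of the 96 libraries was left out. It also ended with centring on the median gene (-0.069, adjusted p = 0.498) and on the second day alone (-0.040, adjusted p = 0.735), while on the first day alone the change was -0.42 (adjusted p = 0.0106).

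In females jet did not pass the test. Female RNAi heads ran from 4.96 TPM through a median of 8.41 TPM to 13.5 TPM, against 4.99, 10.5 and 15.1 TPM in female control heads, and the ranges overlapped almost fully. The means were 9.18 ± 2.80 TPM in female RNAi heads and 10.5 ± 2.87 TPM in female control heads (SD, n = 24 each). The fitted log2 change was -0.18 (SE 0.10, 95% interval -0.38 to 0.02, limma, adjusted p = 0.122), with 17 of 24 pairs lower. The RNAi change of jet, female minus male, differed by 0.05 (95% interval -0.23 to 0.34, adjusted p = 0.89).

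Between sexes, jet was higher in females in both genotypes, and cry was higher in females among RNAi heads. jet was higher in female RNAi than in male RNAi heads by 0.36 on the log2 scale (SE 0.10, adjusted p = 0.00122, higher in 19 of 24 pairs) and in female control than in male control heads by 0.31 (SE 0.10, adjusted p = 0.00597, 19 of 24 pairs). cry was higher in female RNAi than in male RNAi heads by 0.29 (SE 0.10, adjusted p = 0.00841, 16 of 24 pairs), while in controls its female minus male difference was -0.06 (95% interval -0.25 to 0.14, adjusted p = 0.626). These are limma tests, in which 74% of genes passed in the RNAi comparison and 68.2% in the control comparison. Against female libraries with mt:lrRNA above 50000 TPM alone, the female minus male differences of jet were -0.062 (adjusted p = 0.655) in RNAi and -0.051 (adjusted p = 0.704) in control heads, and those of cry were -0.13 (adjusted p = 0.322) in RNAi and -0.37 (adjusted p = 0.00295) in control heads, where 66.2% and 63.4% of genes passed in the same order of genotypes. Against low mt:lrRNA females alone, cry in controls differed by 0.16 (adjusted p = 0.108), so the sign of every one of these 4 differences depended on which female libraries were used. The calls in RNAi heads were also lost on the first day alone (0.24 for cry, adjusted p = 0.113, and 0.29 for jet, adjusted p = 0.0658, with 62.6% of genes past the threshold) and after rescaling without mitochondrial genes (0.063 for cry, adjusted p = 0.471, and 0.16 for jet, adjusted p = 0.0774, 76%).

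The groups ranked differently for each gene. By mean level, cry was highest in male controls, followed by female controls, female RNAi and male RNAi heads. The neighbours in that order that did not differ in the test were the female and male controls. For jet the order was female controls, female RNAi, male controls and male RNAi heads, and female RNAi did not differ from female controls in the test, while female RNAi was not tested against male controls. Since TPM is per length, the levels of both genes can be set side by side. The ratio of cry to jet averaged 10.97 ± 2.23 in female RNAi, 11.1 ± 1.44 in female control, 11.9 ± 2.77 in male RNAi and 14.8 ± 2.82 in male control heads (SD, n = 24 each). Over all libraries cry averaged 102 TPM, above 86.9% of the tested genes, and jet 8.65 TPM, above 29.1% of them.

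The study asked how Achl acts on daily RNA rhythms, and over the time course cry had its highest time-of-day mean in late subjective night or early subjective day in each group. In male control heads the mean of both days was 149 TPM at time of day CT4 and 71.7 TPM at CT14. In male RNAi heads the corresponding extremes were 93.5 TPM at CT0 and 56.3 TPM at CT14. Female RNAi heads ranged between 121 TPM at CT22 and 73.0 TPM at CT8, and female control heads between 136 TPM at CT2 and 83.2 TPM at CT12. The lowest time of day was CT12 or CT14 in 3 of the 4 groups, and CT8 in female RNAi heads.

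**Figure D2:**
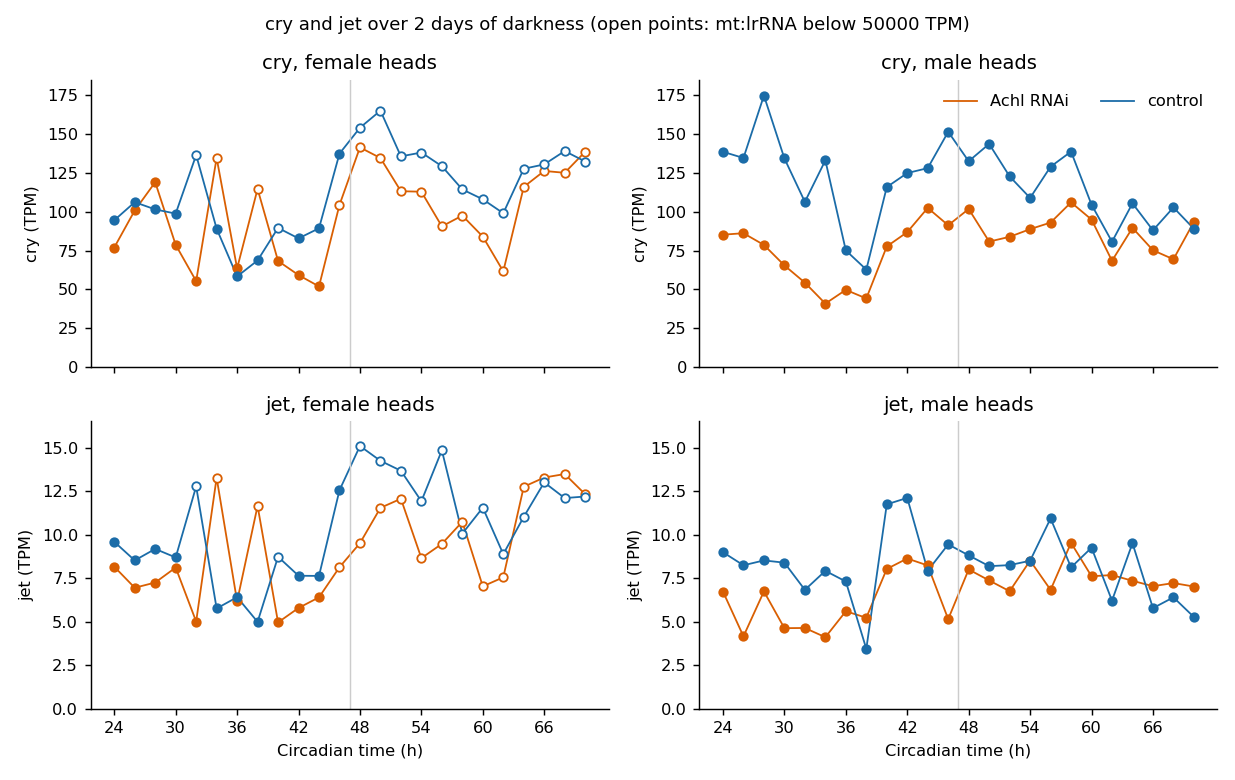
cry (top) and jet (bottom) in TPM against circadian time in h, in female (left) and male (right) heads, with Achl RNAi in orange and control in blue, 1 library per point. Open points mark libraries with mt:lrRNA below 50000 TPM, and the grey line parts the days; in males cry lies lower with RNAi at every time but CT70.

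Fitted with a cosine of 24 h, the peak of cry exceeded its trough by a ratio of 1.36 in female RNAi heads, peaking at CT1.4 ± 1.7 h, and of 1.45 in female control heads, peaking at CT1.5 ± 1.4 h (± SE). In males the ratio was 1.41 at CT23.3 ± 1.5 h in RNAi heads and 1.53 at CT2.6 ± 1.2 h in control heads. None of these 4 rhythms passed the adjusted threshold: the p-values before and after adjustment in limma were 0.0886 and 0.57 in female RNAi, 0.0321 and 0.444 in female control, 0.0523 and 0.336 in male RNAi, and 0.0116 and 0.383 in male control heads. The shares of genes that passed were 1.4%, 1.6%, 1.02% and 1.26% in that order of groups. The fitted peaks of cry, none from a rhythm that passed, lay nearer to those of Clk than to those of the evening gene vri. The gap between cry and Clk was widest in male control heads, where Clk peaked at CT22.3 ± 0.60 h. That gap was not tested. Clk, which encodes the activator of the loop, passed in all groups with peaks at CT23.8, CT23.2, CT22.7 and CT22.3 in the same order of groups, and vri, a repressor of Clk, passed in all groups with peaks at CT12.8, CT11.6, CT12.3 and CT12.0.

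jet showed no rhythm that passed. Its ratio was 1.42 in female control heads with a fitted peak at CT1.5 ± 1.6 h (adjusted p = 0.552). In the other groups the ratios were 1.11 in female RNAi (adjusted p = 0.957), 1.20 in male RNAi (adjusted p = 0.653) and 1.12 in male control heads (adjusted p = 1), with peak times whose SE reached from 2.9 to 5.4 h. In male controls the time-of-day means of jet held both extremes side by side, 4.83 TPM at CT14 and 10.6 TPM at CT16.

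**Figure D3:**
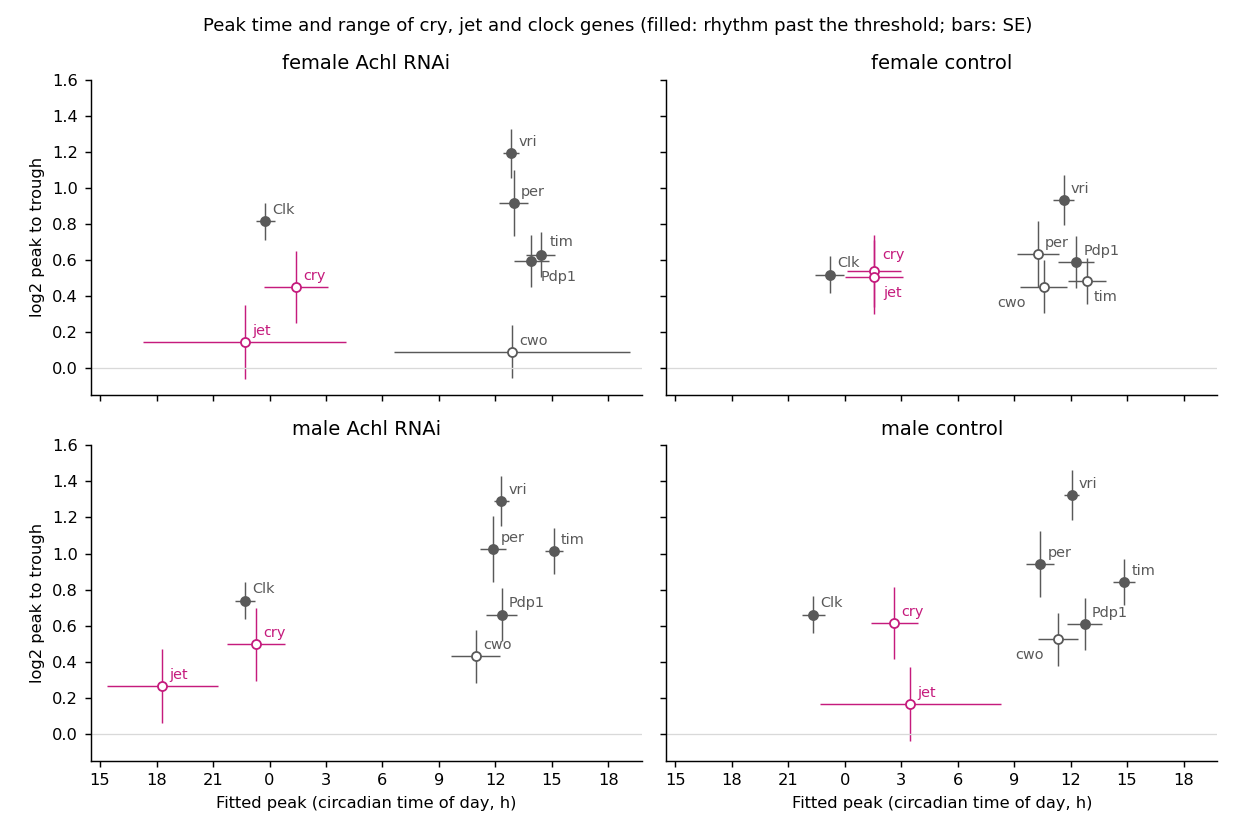
Fitted peak (circadian time of day in h) against log2 peak to trough for cry and jet (pink) and 6 clock genes (grey), 1 panel per group; bars are SE and filled points passed the adjusted threshold. cry never passes, and its fitted peak lies nearer to that of Clk than to that of vri in every panel, while vri and Pdp1 pass in every panel near CT12 to CT14.

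No difference in rhythm between groups passed for either gene in limma. For cry the peak in RNAi heads was shifted against control by -0.12 h in females (95% interval -4.49 to 4.25 h, adjusted p of the rhythm difference 0.999) and by -3.32 h in males (95% interval -7.21 to 0.57 h, adjusted p = 0.968). The change in its log2 peak to trough was -0.09 (95% interval -0.65 to 0.47) in females and -0.12 (95% interval -0.68 to 0.44) in males. For jet these were -0.36 (95% interval -0.93 to 0.21, adjusted p = 0.999) in females and 0.10 (95% interval -0.47 to 0.67, adjusted p = 0.968) in males. The share of all genes that passed was 0.0189% in females and 0% in males, where 200 genes had an unadjusted p under 0.05. The lowest unadjusted p of these 4 tests was 0.245, that of cry in males. Between females and males the rhythm differed for neither gene at the threshold in RNAi (adjusted p = 0.986 for both) or control heads (adjusted p = 1 for both), and 0.00946% of genes passed in each. On the second day alone the rhythm of cry did differ between female and male RNAi heads (adjusted p = 0.013, where 16.9% of genes passed), while that of jet did not pass (adjusted p = 0.0991).

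The level of both genes differed between the mt:lrRNA sets of females and moved with mt:lrRNA across male libraries. In female RNAi heads cry averaged 113 ± 22.4 TPM in the 15 libraries of low mt:lrRNA and 74.9 ± 22.3 TPM in the 9 others, and in female control heads 129 ± 20.3 TPM in the 14 low libraries and 92.7 ± 21.6 TPM in the 10 others. jet averaged 10.8 ± 2.21 and 6.53 ± 1.19 TPM in the same sets of female RNAi heads, and 12.2 ± 2.00 and 8.10 ± 2.16 TPM in those of female control heads. Within the high set of females the correlation of log2 levels with mt:lrRNA was -0.72 for cry in RNAi and -0.79 in control heads. Without the 2 farthest libraries it was 0.001 and -0.27. For jet it was -0.27 and -0.41, and -0.033 and 0.13 without them. Within the low set it was -0.55 and -0.635 for cry and -0.63 and -0.67 for jet, and from -0.49 to -0.29 without the 2 farthest. In males, where no such sets exist, the correlation of log2 levels with mt:lrRNA was -0.79 for cry in RNAi heads (Spearman -0.72, and -0.66 without the 2 farthest libraries) and -0.64 in control heads (Spearman -0.67, and -0.67 without them). For jet it was -0.78 in male RNAi heads and -0.76 in male control heads (n = 24 each). These libraries share a time order and a fixed TPM sum, which mt:lrRNA itself fills in part, with a median of 118520 TPM in male RNAi and 117697 TPM in male control heads. The 4 male RNAi libraries in which cry fell below every control had mt:lrRNA between 146725 and 194668 TPM, all above that median.

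**Figure D4:**
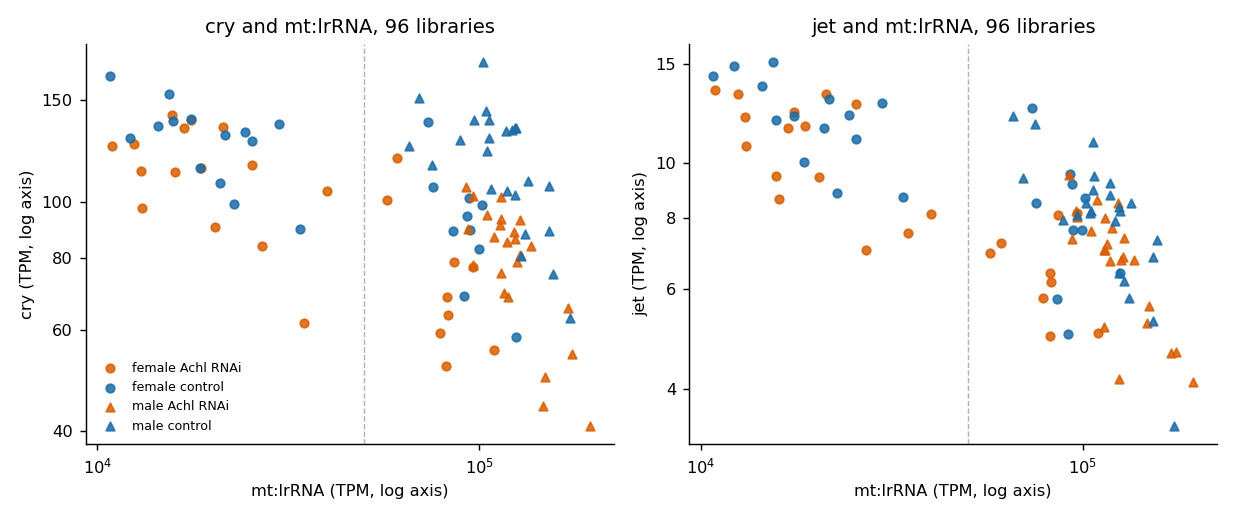
cry (left) and jet (right) against mt:lrRNA, all in TPM on log axes, for the 96 libraries; circles are females, triangles males, orange Achl RNAi and blue control, and the dashed line marks 50000 TPM. Within each male group, libraries of higher mt:lrRNA have lower cry and jet, and the female libraries left of the line average more of both than those right of it.

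With log2 mt:lrRNA as a covariate, an alternative chosen after seeing the data, cry was called rhythmic in all 4 groups. Its ratio was 1.36 in female RNAi (CT1.5, adjusted p = 0.0205), 1.40 in female control (CT0.78, adjusted p = 0.00824), 1.39 in male RNAi (CT2.6, adjusted p = 0.0266) and 1.58 in male control heads (CT4.4, adjusted p = 6.56e-05). The shares of genes called in that fit were 5.52%, 5.37%, 1.07% and 2.7% in the same order. jet then passed in female control heads alone (ratio 1.37, CT0.71, adjusted p = 0.0267), and no difference in rhythm between RNAi and control passed for either gene. The RNAi change of cry in that fit was -0.27 in females (adjusted p = 9.77e-06, 74.1% of genes called) and -0.46 in males (adjusted p = 4.79e-11, 57.8% called). That of jet was -0.23 in females (adjusted p = 0.000313) and -0.12 in males (adjusted p = 0.0636). The covariate may itself carry time of day or genotype, and this was not tested.

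Both genes differed in level between the days at the threshold in 3 groups, male controls being the exception. The second-day mean of cry was 112 ± 24.3 TPM and the first-day mean 85.6 ± 27.97 TPM in female RNAi heads, and 131 ± 18.3 and 96.1 ± 23.3 TPM in female control heads (SD, n = 12 each). In male RNAi heads they were 87.1 ± 12.0 and 71.9 ± 20.4 TPM, and in male control heads 112 ± 20.9 and 123 ± 30.7 TPM. The log2 difference, second minus first day, was 0.41 (adjusted p = 0.000775), 0.47 (adjusted p = 0.000202), 0.32 (adjusted p = 0.0311) and -0.11 (adjusted p = 0.864) in female RNAi, female control, male RNAi and male control heads, in limma, where 59.8%, 61.1%, 19.3% and 0.123% of genes passed. For jet the differences were 0.46 (adjusted p = 0.000462), 0.52 (adjusted p = 0.000136), 0.32 (adjusted p = 0.0376) and -0.05 (adjusted p = 0.93). In females the days overlapped the mt:lrRNA sets in part, since every second-day library was in the low set and so were 3 first-day libraries of RNAi and 2 of control heads. In female RNAi heads the 3 first-day libraries of the low set averaged 118 ± 15.4 TPM for cry and 11.02 ± 2.63 TPM for jet, and the 9 of the high set 74.9 ± 22.3 and 6.53 ± 1.19 TPM. In female control heads the 2 first-day libraries of the low set had 136.5 and 89.6 TPM of cry and 12.8 and 8.73 TPM of jet, at CT32 and CT40, against means of 92.7 and 8.10 TPM in the 10 of the high set. The change between days within the low set was not tested.

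The daily course of cry also differed between days in male RNAi heads. There the ratio was 1.18 on the second day, peaking at CT6.6 ± 3.4 h, and 2.14 on the first, peaking at CT22.5 ± 0.76 h (adjusted p of the difference 0.0207, where 15.1% of genes passed). In female RNAi heads the ratios were 1.73 on the second day and 1.34 on the first, and this difference did not pass (adjusted p = 0.0893, 13% of genes). In controls it did not pass in females (adjusted p = 1, 0% of genes, with 394 at an unadjusted p under 0.05) or males (adjusted p = 0.292, 0.189%), nor did any such difference of jet (adjusted p from 0.197 to 1).

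The genes most like cry over the 96 libraries, after each group mean was taken out, were CG7724 (r = 0.93), Dip-B (0.928), a dipeptidase, CG2277 (0.927), Mdr49 (0.909), an ABC transporter, and CG11073 (0.906). In males these correlations of log2 levels ran from 0.838 (CG11073) to 0.954 (CG2277), both in male control heads. CG7724 had 0.945 in male RNAi and 0.926 in male control heads. Males have no mt:lrRNA sets, but cry there still correlated with mt:lrRNA, at -0.79 in RNAi and -0.64 in control heads. The genes most like jet were Taf6 (0.861), a subunit of the TFIID complex, Hexo2 (0.86), CG31705 (0.858), Ykt6 (0.856), a SNARE protein, and ALiX (0.856). cry and jet correlated at 0.778 with each other, which ranked jet 1220th of 10567 genes in likeness to cry. Pdp1, an activator of Clk, was the gene least like cry of all 10567 (r = -0.837), and the relation was -0.67 in male RNAi and -0.80 in male control heads (Spearman -0.42 and -0.76, n = 24 each). Within the low and high mt:lrRNA sets of females, of 9 to 15 libraries, it lay between -0.85 and -0.89, and in the 9 female RNAi libraries of the high set it was -0.58 without the 2 farthest (Spearman -0.72 with all 9). cwo, a repressor of the same loop, stood at -0.729, and Clk at 0.262. The libraries share their time, day and scaling, and the values are descriptions.

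Of 18 genes on a list of the machinery that destroys TIMELESS and cryptochrome, jet included, 12 were lower with RNAi in females and 17 in males, where 55.7% and 53.5% of all genes were lower in the same order of sexes. None was higher, with 0 at an unadjusted p under 0.05 in limma. The median log2 changes were -0.19 in females and -0.21 in males, near the -0.18 and -0.16 of all genes. SkpA, the adaptor that ties F-box proteins such as JET to the ligase, changed by -0.24 on the log2 scale (adjusted p = 3.37e-10) in females and -0.21 (adjusted p = 3.99e-08) in males. slmb, the F-box protein that acts on PERIOD, changed by -0.20 (adjusted p = 1.75e-09) in females and -0.17 (adjusted p = 2.6e-07) in males. alien, which encodes subunit CSN2 of the COP9 signalosome, a regulator of cullin ligases, changed by -0.27 (adjusted p = 1.67e-07) in females and -0.34 (adjusted p = 2.44e-10) in males. No member of that list had a rhythm that passed in limma in any group, with 1 at an unadjusted p under 0.05 in female RNAi, 0 in female control, 5 in male RNAi and 0 in male control heads. By contrast, 5 of 15 core clock genes passed in female RNAi, 3 in female control, 5 in male RNAi and 5 in male control heads. Over all genes 1.4%, 1.6%, 1.02% and 1.26% passed in the same order of groups. At an unadjusted p under 0.05 there were 5, 6, 7 and 6 core clock genes in that order. The share of all genes at that unadjusted p was not counted, so the unadjusted counts of neither list can be compared between groups. For none of the 15 did a rhythm difference between RNAi and control pass in either sex, with 0 at an unadjusted p under 0.05.

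Among 8 genes listed as partners of cryptochrome, 5 were lower in each sex, a share near the 55.7% of all genes in females and 53.5% in males. At an unadjusted p under 0.05, 6 were lower in females and 5 in males, and 0 were higher in either sex. The median log2 changes were -0.22 in females and -0.23 in males, against -0.18 and -0.16 over all genes. tim, whose product is the target of both proteins in light, changed by -0.30 (adjusted p = 5.29e-05) in females and -0.36 (adjusted p = 1.41e-06) in males. inaD, the scaffold of the phototransduction complex, changed by -0.42 (adjusted p = 0.000797) in females and -0.37 (adjusted p = 0.00364) in males. ninaC, a myosin kinase of photoreceptors, changed by -0.23 (adjusted p = 9.24e-05) in females and -0.24 (adjusted p = 5.08e-05) in males. Hk, a potassium channel subunit through which cryptochrome acts on neuron firing, changed by -0.22 in females (adjusted p = 9.52e-07) and had a change of 0.03 in males (adjusted p = 0.501). qsm, a membrane protein of light input, changed by -0.23 in males (adjusted p = 0.000488), had -0.11 in females (adjusted p = 0.0904), and in female RNAi heads had a rhythm that passed, with a ratio of 1.43 and a peak at CT23.0 (adjusted p = 0.01). In female control heads the ratio of qsm was 1.21 with a fitted peak at CT23.9 (limma, adjusted p = 0.563). Rhythms of 3 of the 8 passed in female RNAi (tim, per and qsm) and 0 in female control heads. In male RNAi and in male control heads 2 passed, tim and per in each. Over all genes 1.4% passed in female RNAi, 1.6% in female control, 1.02% in male RNAi and 1.26% in male control heads. At an unadjusted p under 0.05, 3 of the 8 did in each group, and the share of all genes at that p was not counted. For none of the 8 did a rhythm difference between RNAi and control pass in either sex, with 0 at an unadjusted p under 0.05.

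Light also reaches the clock through the eyes. Of 18 genes of that visual input 12 were lower in females and 13 in males, against 55.7% and 53.5% of all genes, and 0 were higher, with 0 at an unadjusted p under 0.05 in limma. The median log2 changes were -0.20 in females and -0.22 in males, against -0.18 and -0.16 over all genes. ninaE, the main rhodopsin, changed by -1.46 (adjusted p = 6.3e-34) in females and -1.27 (adjusted p = 4.65e-30) in males, and trpl, a channel of phototransduction, changed by -1.07 in females (adjusted p = 1.25e-17). In males trpl averaged 408 ± 77.9 TPM in RNAi and 813 ± 127 TPM in control heads (SD, n = 24 each, adjusted p = 3.46e-16). ort, the histamine receptor of the neurons behind photoreceptors, changed by -0.42 (adjusted p = 4.33e-14) in females and -0.19 (adjusted p = 0.000185) in males. santa-maria, a carotenoid transporter needed for visual pigment, changed by -0.22 (adjusted p = 1.06e-05) in females and -0.39 (adjusted p = 7.02e-13) in males.

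Of the marker lists of head tissues, that of fat body had the largest median change in males. All 7 tested of 8 fat body markers were lower in male RNAi heads, where 53.5% of all genes were. Their median log2 change was -0.63, against -0.16 over all genes. Their summed level lay between 1433 and 2738 TPM in male RNAi heads (median 2193). In male control heads it lay between 3386 and 4282 TPM (median 3830), without overlap, though how many genes separate in this way was not counted. That sum is weighted to abundant markers, such as apolpp (1582 ± 259 TPM in male RNAi and 2057 ± 314 TPM in male control heads), Pepck (190 ± 83.5 and 609 ± 117 TPM) and Lsp2 (64.9 ± 85.8 and 538 ± 152 TPM, SD, n = 24 each). In females 4 of the 7 fat body markers were lower, where 55.7% of all genes were (median log2 change -0.33, against -0.18 over all genes). The female sums overlapped, from 1864 to 6859 TPM in RNAi and from 3002 to 6620 TPM in control heads. Fbp1 was the 1 marker with a mean below 1 TPM in each group. Photoreceptor sums lay between 24840 and 35857 TPM in male RNAi and between 36406 and 55872 TPM in male control heads. Most of that gap lay in ninaE, which averaged 10380 ± 1233 TPM in male RNAi and 25270 ± 4084 TPM in male control heads (SD, n = 24 each), while the median log2 change of the list in males was -0.18, against -0.16 over all genes. Of the photoreceptor markers 8 of 10 were lower in females and 7 of 10 in males, of glia 8 of 8 in each sex, and of neurons 5 of 8 in females and 1 of 8 in males, where 55.7% of all genes in females and 53.5% in males were lower. The median log2 change of the glia list was -0.25 in females and -0.20 in males, and that of the neuron list -0.16 and -0.00065. The part of these tissues in the levels of cry and jet was not tested.

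**Figure D5:**
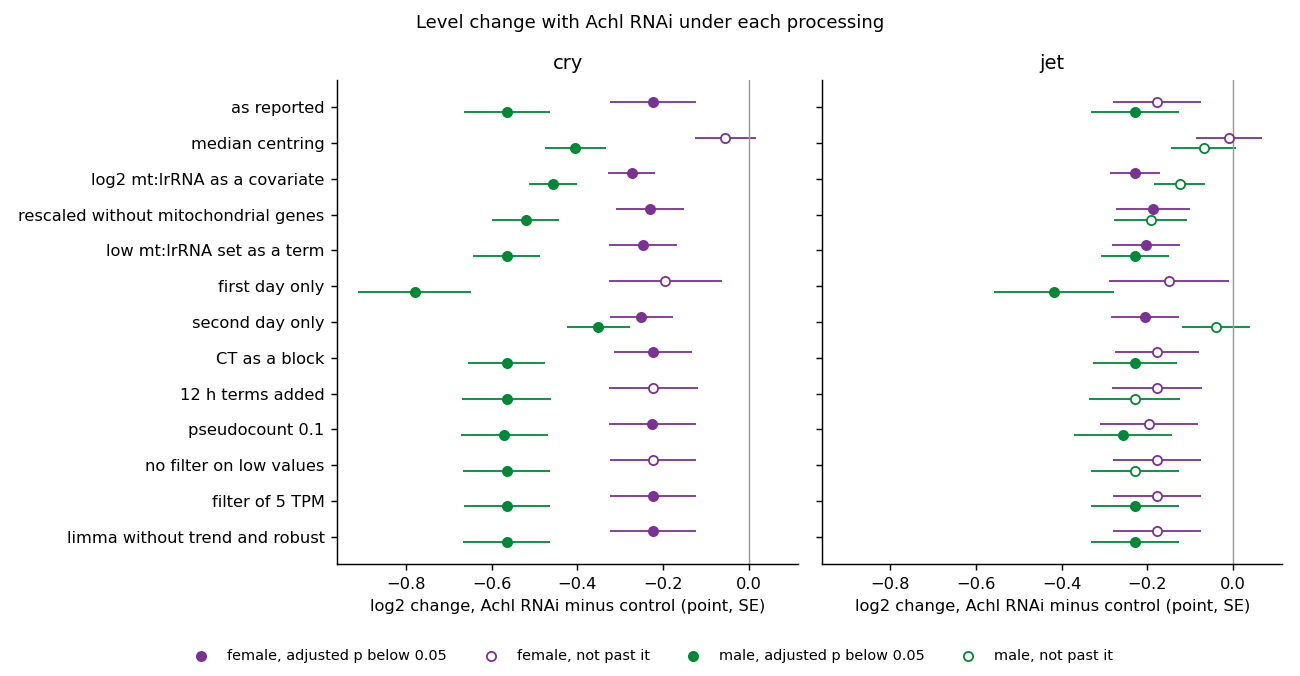
Fitted log2 change of cry (left) and jet (right), Achl RNAi minus control, under each processing (rows), with SE bars, for females (purple) and males (green); filled points passed the adjusted threshold. The male change of cry stays below 0 and filled in every row, from -0.78 to -0.35, while the other changes move across the threshold.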

How the data were processed

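The deposited values are TPM per gene and library. STAR, RSEM and the build dm6 are named in the submitters' processing notes, with versions not given in the sources used here. Gene lengths in other columns were deposited by the authors too and used only to describe the genes. Every library summed to 1000000 TPM within 0.79, and 0 pairs of libraries were identical. Positions come from Ensembl release 115 (BDGP6, which is dm6).

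Genes that reached 1 TPM in 24 or more libraries, 10568 in all, were fitted together in limma 3.58.1 (trend and robust, R 4.3.3) on log2(TPM + 1), with a mean, cosine and sine of 24 h for each group. Contrasts were two-sided, rhythms were F tests, and p-values were adjusted by Benjamini-Hochberg over all genes tested, with a threshold of 0.05. Each day had its own terms in the day comparisons. Peak times and their SE came from the coefficients by the delta method, and the fits were tested on simulated data. Figures used Python 3.11.15 and matplotlib 3.10.9.

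The genes, lists and tests were chosen with earlier results of these data known. Genes named besides cry and jet were Achl, 6 clock genes, the 5 genes most correlated with each member, up to 3 called list members of lowest p per comparison, and neighbours in the annotation; inaD was named after its values were seen. Sequences are not shown here.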

Additional observations from a re-analysis of the deposited data

How the results depend on the processing

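The lower level of cry in male RNAi heads passed the test under every alternative run, with log2 changes from -0.78 on the first day alone to -0.35 on the second, and from -0.60 to -0.53 when any 1 library was left out. The female change of cry missed the threshold without a filter (-0.22), with 12 h terms (-0.22), with median centring (-0.055), on the first day (-0.19) and in low mt:lrRNA libraries (-0.20), and ran from -0.25 to -0.18 with 1 library left out. The male change of jet missed it without a filter (-0.23), with 12 h terms (-0.23), with median centring (-0.069), on the second day (-0.040), with the mt:lrRNA covariate (-0.12) and after rescaling without mitochondrial genes (-0.19), and ran from -0.27 to -0.20 with 1 library left out. The female change of jet passed on the second day (-0.21), with the low mt:lrRNA set as a term (-0.20), with the covariate (-0.23) and after rescaling (-0.19). The female minus male RNAi change of jet turned negative on the second day (-0.17), in high mt:lrRNA females (-0.011) and with the covariate (-0.11). In controls the female minus male level of cry passed as lower on the first day (-0.35), in high mt:lrRNA females (-0.37) and after rescaling (-0.23), and turned positive on the second day (0.23) and in low mt:lrRNA females (0.16). That of jet was 0.024 on the first day and 0.16 after rescaling, past no threshold, and -0.051 in high mt:lrRNA females. With RNAi these differences turned to -0.13 for cry and -0.062 for jet in high mt:lrRNA females, and missed the threshold on the first day (0.24 and 0.29) and after rescaling (0.063 and 0.16). The female minus male RNAi change of cry passed with median centring (0.35), on the first day (0.58) and with the set term (0.32). Apart from leaving out libraries, it missed the threshold in every other setting. It was 0.10 on the second day, 0.18 with the covariate and 0.24 in high mt:lrRNA females. With 1 library left out it ran from 0.31 to 0.38 and passed for 1 of the 96 libraries. The female minus male rhythm difference of cry with RNAi passed on the second day (0.89). Rhythms, as log2 peak to trough, passed for cry in male control heads with centring (0.58) and the covariate (0.66), in male RNAi heads on the first day (1.10) and with the covariate (0.48), in female RNAi heads on the second day (0.79) and with the covariate (0.44), and in female control heads with the set term (0.63) and the covariate (0.48). For jet they passed in female RNAi heads on the second day (0.50) and in female control heads with the set term (0.60) and the covariate (0.45). Many genes passed in the same single-day fits. These were 2464 of 10568 genes in male RNAi heads on the first day and 3053 in female RNAi heads on the second. With centring 149 genes passed in male control heads, and with the set term 324 passed in female control heads. The cause of these moves between settings was not tested. The set term, the covariate and the rescaling were chosen after seeing the data. The pseudocount of 0.1, the filter of 5 TPM, limma without its trend and robust options, and the time point as a block in place of the courses (which gives levels only) changed no call of cry or jet. Depth is unknown, so it sets no limit that can be stated.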

Other observations

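Cryptochrome comes from the family of photolyases, which are DNA repair enzymes, and 1 of them, phr, was among the many genes lower with RNAi. phr averaged 15.4 ± 5.39 TPM in female RNAi and 18.1 ± 4.78 TPM in female control heads, and 12.9 ± 3.83 TPM in male RNAi and 15.6 ± 3.44 TPM in male control heads (SD, n = 24 each). Its log2 changes were -0.26 in females (limma, adjusted p = 0.0399) and -0.28 in males (adjusted p = 0.0257). The median log2 changes of all genes were -0.18 in females and -0.16 in males, and 55.7% and 53.5% of genes were lower. phr6-4, the (6-4) photolyase, had means of 0.35 and 0.821 TPM in female RNAi and female control heads and 0.637 and 1.02 TPM in male RNAi and male control heads. It reached the 1 TPM of the filter on low values in 0 female RNAi, 7 female control, 5 male RNAi and 13 male control libraries, so it passed mainly through controls and its test is not given. In the temperature route into the clock, pyx, a channel gene, had -0.19 in females (adjusted p = 0.00994) and -0.22 in males (adjusted p = 0.00417), and of the 3 tested of 4 genes 1 was lower in females and 3 in males, where 55.7% and 53.5% of all genes were lower, and 0 were higher, also at an unadjusted p under 0.05. No gene of either list had a rhythm that passed in limma in any group. At an unadjusted p under 0.05 there were 0 temperature genes and 1 of the photolyase family (cry and phr6-4 included) in each group. That gene was cry in control heads but not in RNAi heads, and the share of all genes at that unadjusted p was not counted. Over all genes 1.4% passed in female RNAi, 1.6% in female control, 1.02% in male RNAi and 1.26% in male control heads.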
